A study of Mus musculus with 6 samples.

Results

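The 9 genes described here mark or direct the identity of lymphatic endothelium, the cell layer that lines lymph vessels: Prox1, Nr2f2, Maf, Tbx1, Lyve1, Pdpn, Stab1, Mmrn1 and Reln. They were taken by symbol from the read-count table. All 9 were among its 18404 genes, and all 9 passed the low-count filter that left 14920 genes for testing. The lowest count of a member in any library was 100. The table holds poly(A) RNA of mouse ear skin, taken on postnatal day 3, in 3 control libraries and 3 libraries with an induced, endothelium-specific knockout of Kdr (labelled ecko). VEGFR2, the product of Kdr, carries most VEGF-A signalling in endothelium. Pups of both groups received tamoxifen, at 60 µg per day on postnatal days 1 and 2, and the title of the series gives 48 h as the interval. Controls are described as littermates. Their alleles, the Cre driver of the knockout, and whether each library is 1 animal are not given in the sources used here, so p-values measure the spread between these libraries.

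Lymphatic endothelial cells arise in the embryo from venous endothelium. SOX18 and the nuclear receptor COUP-TFII, encoded by Nr2f2, switch on Prox1 there, and PROX1 must stay present for the cells to keep their lymphatic character. The series asks whether a loss of endothelial VEGFR2 moves cells from lymphatic toward blood-forming gene programs. In whole skin, fewer lymphatic cells and less RNA per cell cannot be told apart, and several of these genes are also transcribed outside lymphatics, so each value covers every cell type that uses the gene.

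RefSeq promoter windows (build GRCm38.p6) were found for 7 of the 9 genes, with 2 start sites each for Prox1 and Tbx1. The 250 bases before the start are printed, 5′ to 3′, for 3 of them. Prox1 and Nr2f2 are shown as the regulators of the lymphatic state that shared their lowest library, and Mmrn1 as the gene with the lowest fold change. Capitals mark motif matches found by a script, in either orientation.
Prox1 promoter, chr1:190170828-190171077 (- strand): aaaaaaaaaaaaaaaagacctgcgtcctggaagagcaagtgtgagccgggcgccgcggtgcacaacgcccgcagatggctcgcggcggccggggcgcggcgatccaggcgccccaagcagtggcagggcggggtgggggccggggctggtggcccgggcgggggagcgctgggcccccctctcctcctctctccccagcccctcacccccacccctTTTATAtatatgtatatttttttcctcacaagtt
Nr2f2 promoter, chr7:70366747-70366996 (- strand): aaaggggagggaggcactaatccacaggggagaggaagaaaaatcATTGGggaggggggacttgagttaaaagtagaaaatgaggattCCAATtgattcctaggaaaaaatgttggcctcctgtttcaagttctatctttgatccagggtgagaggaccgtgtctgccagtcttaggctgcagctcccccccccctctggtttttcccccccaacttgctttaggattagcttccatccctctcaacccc
Mmrn1 promoter, chr6:60944067-60944316 (+ strand): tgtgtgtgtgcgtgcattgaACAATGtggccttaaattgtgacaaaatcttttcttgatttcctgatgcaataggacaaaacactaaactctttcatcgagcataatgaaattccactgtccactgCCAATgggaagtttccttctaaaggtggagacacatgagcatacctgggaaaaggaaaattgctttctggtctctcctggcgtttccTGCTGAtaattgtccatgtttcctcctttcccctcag

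The motifs searched on both strands were ACAATG (bound by SOX factors), AGGTCA (nuclear receptors), TGCTGA (MAF factors), AGGTGT (T-box factors), CCGGAA (ETS factors), TATAAA (the TATA box) and CCAAT (the box of that name). No matches overlapped in the members' windows. Positions give the first base of a match, counted from -1 just before the start site. The Prox1 window held TATAAA in reverse, at position -34, and none of the other motifs. The Nr2f2 window held CCAAT at -205 (in reverse) and at -162. The Mmrn1 window held ACAATG at -230, CCAAT at -124 and TGCTGA at -37. Among the other members, TGCTGA and CCAAT also stood before Stab1, AGGTCA before Pdpn, CCGGAA before Reln and AGGTGT before the second Tbx1 start site. Of all 32851 promoter windows of this length, 10.69% held ACAATG, 14.02% AGGTCA, 16.08% TGCTGA, 11.83% AGGTGT, 12.03% CCGGAA, 12.37% TATAAA and 33.85% CCAAT. Base composition differed widely between the members. G and C made up 42.4% of the Mmrn1 window and 80.0% of the Reln window, where the median over all windows was 52.4%. The Reln window was richer in G and C than 98.8% of all windows.

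The deleted gene was checked first. Kdr (chromosome 5, 75932827 to 75979072) had 1599, 1860 and 1337 counts in the control libraries against 348, 431 and 370 in ecko. The log2 fold change was -2.05 ± 0.12 (SE), and the adjusted p from edgeR was 0.0002. Libraries held 16987130 to 17979182 counts. Control 3 stood apart from the rest, with a chi-square per gene of 13.24 to 19.76 against the other libraries, where pairs without it had 4.18 to 11.47. It held the lowest value of 29.3% of all genes tested. Its summed skeletal muscle markers were 5923 CPM (counts scaled to a common library size of 1000000), against 8129 to 10430 in the other 5 libraries. Control 2 and ecko 3 were almost without reads of the Y-linked gene Ddx3y, with 4 and 6 counts against 1445 to 1641. Results that rest on these libraries are given with and without them.

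None of the 9 lymphatic identity genes passed the test between ecko and control. By the quasi-likelihood test of edgeR, 0 of 9 had an adjusted p under 0.05, where 0.0067% of all genes tested did, namely Kdr alone. At an unadjusted p under 0.05 there were also 0 of 9, against 9.01% of all genes. DESeq2 called 0 of 9, against 0.711% of all genes it gave an adjusted p, and limma-voom called 0 of 9, against 0.0067%. In 0 of 9 the groups stood apart without overlap, where 7.55% of all genes did so higher in ecko and 8.11% lower. The mean was higher in ecko in 5 members and lower in 4. Their median log2 fold change came to 0.0002, next to -0.002 over all genes tested. The 95% intervals, each for 1 gene in the fit with all libraries, give the range around each estimate. The lowest bound was 0.716 of the control level, for Mmrn1, and the highest was 1.65 times the control level, for Prox1. With 3 against 3 libraries an exact permutation test cannot give a p below 0.1, so none was used.

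**Figure D1:**
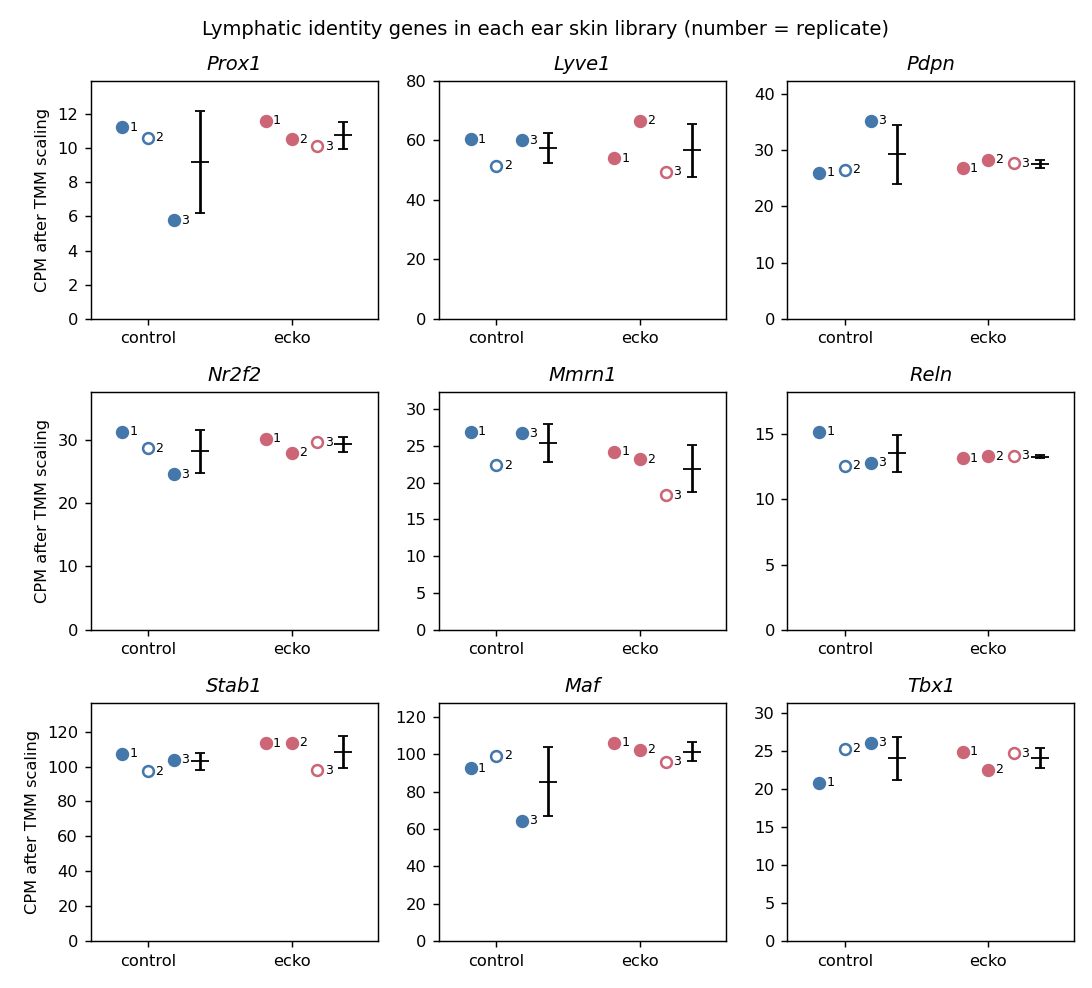
CPM after TMM scaling (y axis, from 0) of each lymphatic identity gene in 3 control and 3 ecko libraries, numbered by replicate. Open circles are the libraries almost without Y-linked reads, and bars show the mean ± SD of 3 libraries. The groups overlap in all 9 genes, and control 3 lies apart from the other 5 libraries in Prox1, Maf and Pdpn.

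Prox1 (Entrez 19130, chromosome 1, 190118035 to 190170827) encodes the homeodomain factor that specifies and maintains lymphatic endothelium. Control libraries held 200, 192 and 100 counts and ecko libraries 209, 188 and 173, that is 11.2, 10.6 and 5.77 CPM against 11.6, 10.5 and 10.1 CPM. Of the 6 libraries, 5 lay between 10.1 and 11.6 CPM, and control 3 alone was low, at 0.532 of the mean of the others. The control mean was 9.21 ± 3.00 and the ecko mean 10.8 ± 0.78 CPM (SD, n = 3). On the log2 scale ecko differed from control by 0.22 ± 0.22 (SE), with an interval of -0.28 to 0.72 and an adjusted p of 0.778. Without control 3 it was -0.02 ± 0.12, with an interval of -0.28 to 0.25. The positive value with all libraries therefore rested on control 3. In the 4 libraries with Y-linked reads, which include control 3, it was 0.38 ± 0.30 (SE), with an interval of -0.32 to 1.08.

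Nr2f2 (Entrez 11819, chromosome 7, 70351946 to 70366746), the COUP-TFII gene, is needed to start Prox1 transcription in veins and is also active in mesenchymal cells. It had 31.3, 28.7 and 24.6 CPM in the controls and 30.2, 28.0 and 29.6 CPM in ecko. Control 3 was again the lowest library, and the ecko libraries lay inside the range of the controls. Its log2 fold change was 0.05 ± 0.10 (SE; interval -0.17 to 0.27, adjusted p 0.885), and -0.03 ± 0.08 without control 3.

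Maf (Entrez 17132, chromosome 8, 115703253 to 115706894) encodes a leucine zipper factor of lymphatic endothelium that is also active in macrophages. Control libraries held 1648, 1794 and 1118 counts and ecko libraries 1908, 1829 and 1640, or 92.6, 99.3 and 64.5 against 106, 103 and 95.9 CPM. Control 3 was far below the other 5 libraries, at 0.649 of their mean, while control 2 exceeded ecko 3. Maf had the highest fold change of the 9, 1.19 times the control level (log2 fold change 0.25 ± 0.15 SE, interval -0.09 to 0.59, adjusted p 0.638). Without control 3 it was 0.09 ± 0.06, with an adjusted p of 0.719. In the 4 libraries with Y-linked reads, which include control 3, it was 0.41 ± 0.16, with an adjusted p of 0.830.

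Tbx1 (Entrez 21380, chromosome 16, 18580979 to 18590671) encodes a T-box factor that acts in lymph vessel growth and is also used in hair follicles and muscle. It had 20.9, 25.3 and 26.1 CPM in the controls and 25.0, 22.6 and 24.7 CPM in ecko. All ecko libraries lay inside the control range. The mean was 24.1 CPM in both groups, with an SD of 2.84 in the controls and 1.31 in ecko (n = 3). Its log2 fold change, 0.0002, had an interval of -0.23 to 0.23 and was smaller in size than that of all but 0.067% of genes tested.

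Lyve1 (Entrez 114332, chromosome 7, 110850607 to 110862953) encodes a hyaluronan receptor of lymphatic capillaries that is also carried by a class of tissue macrophages. Counts were 1076, 931 and 1042 for control and 972, 1189 and 846 for ecko, which is 60.5, 51.5 and 60.1 against 54.1, 66.7 and 49.5 CPM. The ecko libraries held both the highest and the lowest value. Ecko minus control was -0.02 ± 0.11 on the log2 scale (SE; interval -0.27 to 0.24, adjusted p 0.975).

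Stab1 (Entrez 192187, chromosome 14, 31139017 to 31168651) encodes a scavenger receptor of lymphatic and sinusoidal endothelium and of macrophages. It had 107, 97.4 and 104 CPM in the controls and 114, 114 and 97.8 CPM in ecko. Ecko 1 and ecko 2 were above all controls and ecko 3 was not. The log2 fold change was 0.07 ± 0.07 (SE; interval -0.09 to 0.24, adjusted p 0.783). This was the narrowest interval of the 9, for the gene with the most reads.

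Pdpn (Entrez 14726, chromosome 4, 143267409 to 143299564) encodes podoplanin, a surface mucin that binds CLEC-2 on platelets and is also made by keratinocytes and fibroblasts. It had 26.0, 26.6 and 35.3 CPM in the controls and 26.8, 28.3 and 27.7 CPM in ecko. Control 3 was the highest library, and the other 5 ran from 26.0 to 28.3 CPM. Its log2 fold change was -0.08 ± 0.12 (SE; interval -0.35 to 0.18, adjusted p 0.845), and 0.08 ± 0.08 without control 3. Summed fibroblast markers were also highest in control 3, with 43040 CPM against 36890 to 40720, as were basal keratinocyte markers, with 8791 against 8057 to 8528. Their part in the Pdpn value was not tested.

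Mmrn1 (Entrez 70945, chromosome 6, 60944317 to 60989378) encodes multimerin 1, a secreted protein of platelets and lymphatic endothelium. Counts were 479, 404 and 464 for control and 435, 414 and 313 for ecko, or 26.9, 22.4 and 26.8 against 24.2, 23.2 and 18.3 CPM. Ecko 3 was lowest, and control 2 was below ecko 1 and ecko 2. Mmrn1 had the lowest fold change of the 9, at 0.865 of the control level. The log2 fold change was -0.21 ± 0.12 (SE), with an interval of -0.48 to 0.06 and an adjusted p of 0.631. It was -0.10 without ecko 3 and -0.29 without control 2, and had adjusted p of 0.857 and 0.601 in these fits.

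Reln (Entrez 19699, chromosome 5, 21884454 to 22344705) encodes reelin, a secreted glycoprotein of neurons that lymphatic endothelium also releases. It had 15.2, 12.6 and 12.8 CPM in the controls and 13.1, 13.3 and 13.3 CPM in ecko. The ecko libraries differed by a coefficient of variation of 0.809%, below the 6.50% that counting reads alone would give, and all lay inside the control range. Its log2 fold change was -0.03 ± 0.11 (SE; interval -0.28 to 0.22, adjusted p 0.946).

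**Figure D2:**
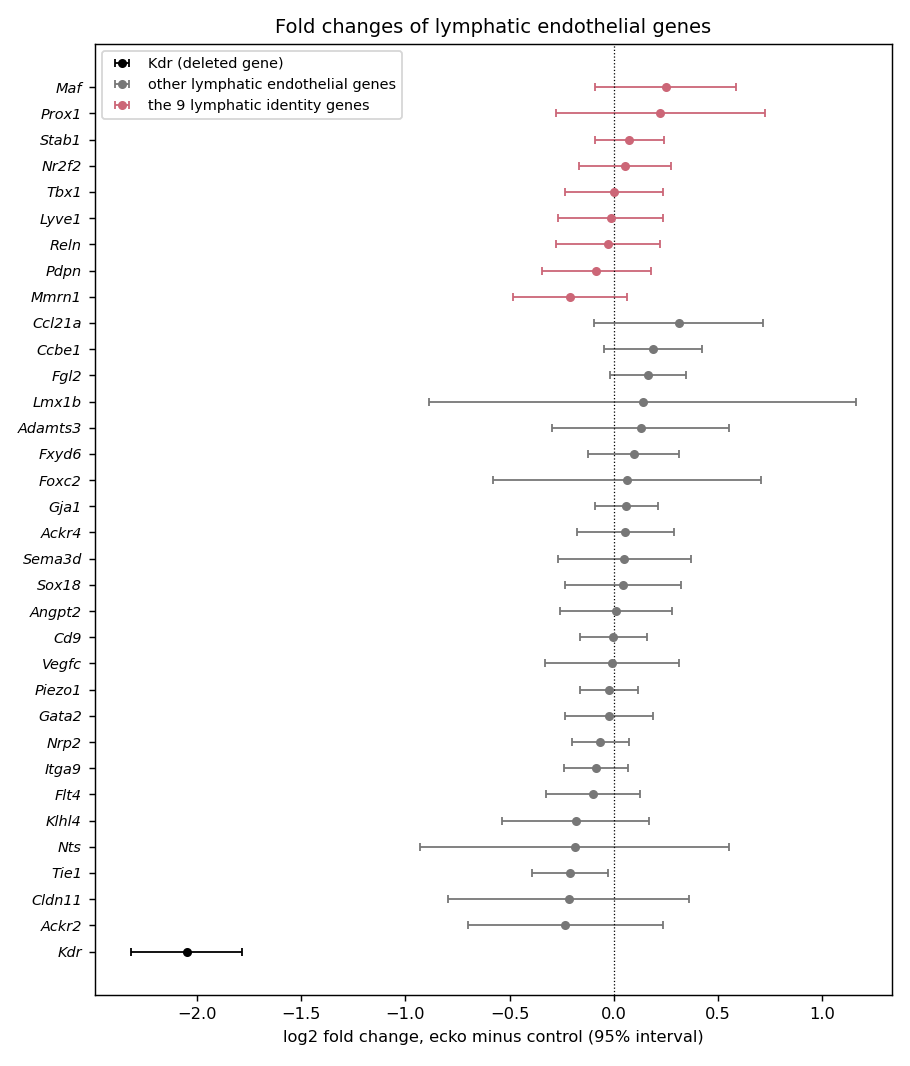
Log2 fold change, ecko minus control, with 95% interval (x axis) for the 9 lymphatic identity genes, 24 other genes linked to lymphatic endothelium and Kdr. The intervals of all 9 identity genes include 0, and Kdr lies at -2.05.

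Per length of transcript the members covered a wide range of levels. Levels are given as reads per kilobase of exon per 1000000 reads (RPKM), over the joined exons of GENCODE M21, with the mean ± SD of 3 control libraries. Lyve1 was highest at 19.8 ± 1.75, followed by Pdpn at 16.1 ± 2.87. Stab1 had 12.9 ± 0.64, Maf 10.4 ± 2.24 and Tbx1 9.02 ± 1.06. Nr2f2 had 5.79 ± 0.69 and Mmrn1 5.66 ± 0.58, and the lowest were Reln at 1.16 ± 0.12 and Prox1 at 1.10 ± 0.36. In the controls the library ranges met between Lyve1 and Pdpn, Maf and Tbx1, Nr2f2 and Mmrn1, and Reln and Prox1, so the order inside these pairs is not set. The place of Maf depends on the gene model: its joined GENCODE exons measure 8241 bases and its RefSeq gene 3642, over which the control level would be 23.5, above all other members. In ecko the order was the same for the first 7 genes. Prox1 had 1.28 ± 0.09 and Reln 1.13 ± 0.01 RPKM there. Every ecko library of Prox1 (1.21 to 1.39) lay above every ecko library of Reln (1.12 to 1.14), the reverse of their order by control means. That control order rested on control 3, where Prox1 had 0.687 RPKM, below the lowest control library of Reln (1.07). In control 1 and control 2 Prox1 lay above Reln, as in ecko. In ecko the ranges of Stab1 and Maf were the ones that overlapped between neighbours.

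Variation between libraries followed different patterns in different members. Control 3 held the lowest value of Prox1, Nr2f2 and Maf, and the highest of Pdpn and Tbx1. Over all genes tested, 29.3% were lowest and 27.5% highest in this library. Control 2 and ecko 3, the libraries almost without Y-linked reads, were the 2 lowest libraries for Lyve1, Stab1 and Mmrn1, that is 3 of 9 members (33.3%), against 6.05% of all genes tested. They were the 2 highest libraries for 0 of 9 members, against 6.66% of all genes. In the 4 libraries with Y-linked reads the log2 fold changes were 0.002 ± 0.12 for Lyve1, 0.10 ± 0.09 for Stab1 and -0.18 ± 0.12 for Mmrn1 (SE), and none passed the edgeR test. The other 2 libraries give 1 value a group, listed above. Within the controls, the coefficient of variation was 32.6% for Prox1 and 21.6% for Maf, against 7.52% and 2.46% from counting. In ecko it was 7.24% and 5.11%. The spread of Prox1 in ecko was thus about that of counting alone.

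**Figure D3:**
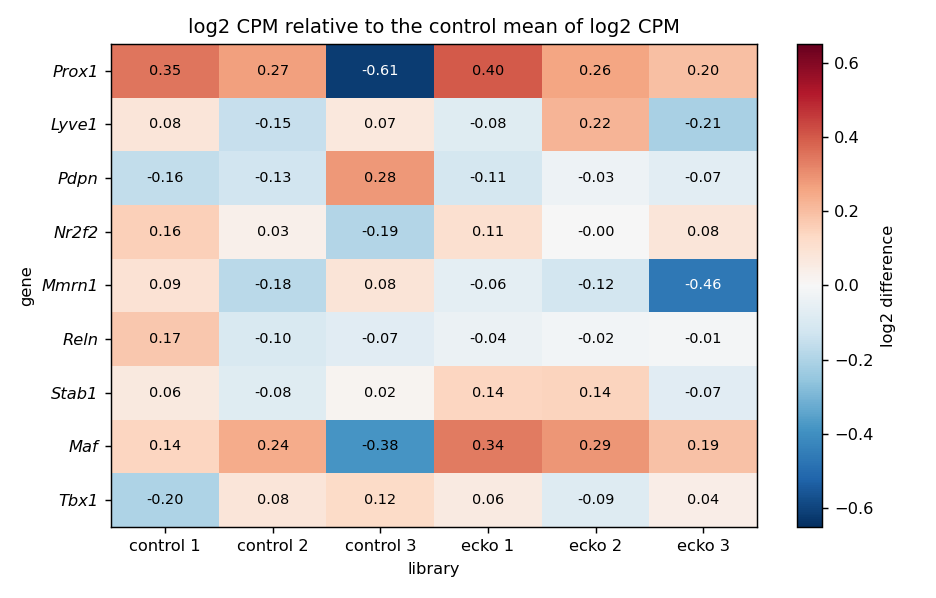
Log2 CPM of each lymphatic identity gene (rows) in each library (columns), relative to the mean of log2 CPM over the 3 controls. Control 3 is low for Prox1, Maf and Nr2f2 and high for Pdpn, and ecko 3 is low for Mmrn1.

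Likeness of pattern was measured as the root mean square difference of log2 CPM over the 6 libraries, each gene centred on its own mean, among 13171 genes with at least 50 counts on average. The smaller the value, the more alike the genes. Prox1 was closest to Rsl1 (0.04) and Mepce (0.04), Maf to Ttf1 (0.02) and Nr2c1 (0.03), and Nr2f2 to P3h2 (0.03) and Mtus1 (0.03). Lyve1 was closest to Agtr2 (0.03) and Alox5 (0.03), Stab1 to Etfrf1 (0.02) and Ppip5k2 (0.02), and Mmrn1 to Slc16a14 (0.06) and Smim10l1 (0.07). Pdpn was closest to Suz12 (0.02) and Tigd2 (0.02), Reln to Sox11 (0.02) and Commd7 (0.03), and Tbx1 to Tsc22d4 (0.02) and Klf13 (0.03). These are the nearest of 13171 genes, so their values are not comparable with those between the 9 members. Of 36 pairs of members the closest were Nr2f2 and Reln (0.09), Reln and Stab1 (0.11), Lyve1 and Stab1 (0.11), and Prox1 and Maf (0.13). The farthest were Prox1 and Pdpn (0.49). For Prox1, 149 genes were nearer than Maf, and for Lyve1, 402 genes were nearer than Stab1. The number of genes nearer than the nearest other member was 514 for Maf, 578 for Mmrn1, 1196 for Reln and 1199 for Nr2f2. It was 2529 for Stab1, 3284 for Pdpn and 4451 for Tbx1.

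Other genes linked to lymphatic endothelium did not pass either. In whole skin their values, too, cover every cell type that uses the gene, and the part of lymphatics in them was not tested. Of 24 further genes, all tested, 12 had a higher and 12 a lower mean with the knockout, and the log2 fold change had a median of 0.0038. By edgeR 0 of 24 passed, and DESeq2 and limma-voom called 0. An unadjusted p of edgeR under 0.05 was found for 1 of 24, against 9.01% of all genes tested. The groups stood apart in 1 of 24, Tie1, where ecko was lower. Over all genes tested 8.11% stood apart lower and 7.55% higher. Flt4, the gene of the VEGF-C receptor VEGFR3, had 17.1 CPM in the controls and 15.9 CPM in ecko (log2 fold change -0.10 ± 0.10 SE, adjusted p 0.780). Ccl21a, the chemokine gene that draws dendritic cells into lymphatics, had 422, 688 and 630 counts under control and 832, 659 and 657 under ecko. Control 1 was its lowest and ecko 1 its highest library, and the log2 fold change was 0.31 ± 0.18 (SE, adjusted p 0.631). Near-identical Ccl21 copies could share these reads.

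The 5 further genes with the smallest unadjusted p were as follows. Tie1, an endothelial receptor of the angiopoietin pathway shared by blood and lymph vessels, had 39.9 ± 3.20 CPM in the controls and 34.4 ± 0.86 CPM in ecko (SD, n = 3), with an adjusted p of 0.516. Fgl2 had a log2 fold change of 0.16 ± 0.08 and Ccbe1, a factor needed to activate VEGF-C, of 0.19 ± 0.11 (SE), with adjusted p of 0.592 and 0.622. Ccl21a was the fourth, and the integrin gene Itga9, active in lymphatic valves, had -0.09 ± 0.07 (SE, adjusted p 0.719).

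The lists of pan-endothelial genes and of blood endothelial genes gave lower medians. Of 22 pan-endothelial genes without Kdr, 20 had a lower mean with the knockout, and 0 passed by edgeR, DESeq2 or limma-voom. Log2 fold changes had a median of -0.17, and of -0.24 without control 3. The groups stood apart in 7, all lower in ecko, against 8.11% of all genes. An unadjusted p under 0.05 was found for 7, against 9.01% of all genes. The summed level of the 22 genes was 667 to 805 CPM in the controls and 621 to 662 CPM in ecko. The groups stood apart in this sum, but narrowly: the lowest control, control 3, had 666.7 CPM and the highest ecko library 661.5 CPM. Of 20 blood endothelial genes 15 had a lower mean, with a median of -0.22, also without control 3. There 0 passed by edgeR or limma-voom and 1 by DESeq2 (Gpihbp1, lower), against 0.711% of all genes by DESeq2. An unadjusted p under 0.05 was found for 7, against 9.01% of all genes. The groups stood apart lower in ecko in 8, against 8.11%, and higher in 1 (Bmx), against 7.55%. When libraries were scaled by the pan-endothelial genes instead of TMM, the median log2 fold change of all genes moved to 0.16, and that of the 9 members to 0.16 as well. On that scale 0 of 9 members passed, where 1.52% of all genes did. Maf had 0.43 ± 0.13 (SE) with an adjusted p of 0.0845, and Prox1 0.41 ± 0.18 with an adjusted p of 0.227. Maf was then the 1 member whose groups did not overlap, higher in ecko, where 25.4% of all genes stood apart in that direction.

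**Figure D4:**
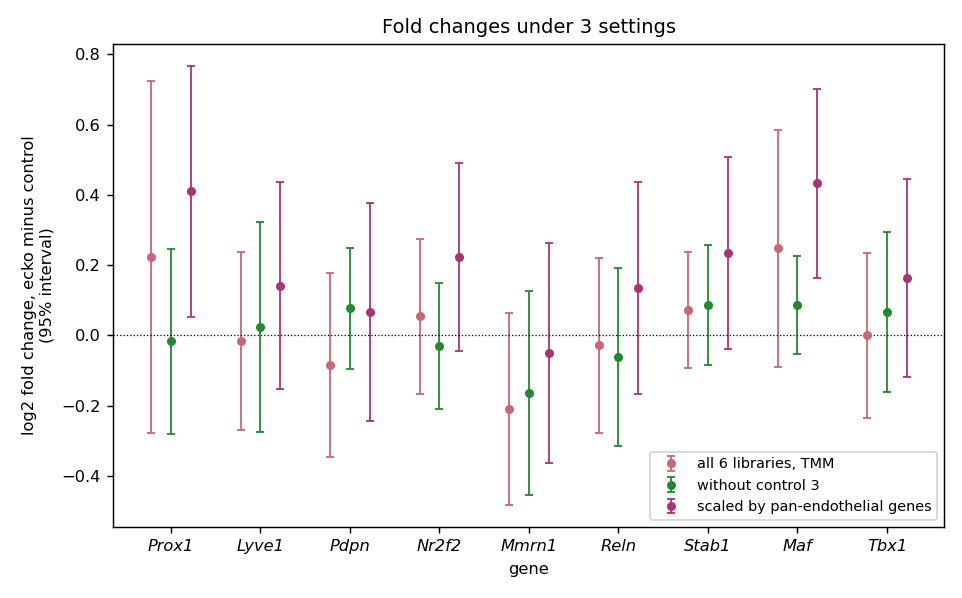
Log2 fold change with 95% interval (y axis) of the 9 lymphatic identity genes (x axis) with all libraries and TMM scaling, without control 3, and scaled by the pan-endothelial genes. Prox1 moves from 0.22 to -0.02 without control 3, and with pan-endothelial scaling values shift upward by about the 0.16 seen over all genes.

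Markers of other cell types that transcribe some of these genes were set beside them. Of 20 macrophage genes, 17 had a higher mean with the knockout. Their median was 0.13 on the log2 scale, and 0.10 without control 3. By edgeR 0 passed, and 7 had an unadjusted p under 0.05, against 9.01% of all genes. Without overlap, 6 stood apart higher in ecko, against 7.55% of all genes. DESeq2 called 2, Mpeg1 and Fcgr1, both higher, against 0.711% of all genes. The summed level of the 20 genes was 1184 to 1328 CPM in the controls and 1285 to 1414 CPM in ecko. No marker was at 0 in any library. Lyve1, Stab1 and Maf are used by macrophages too, and the part of the macrophage level in their values was not tested. Blood-forming genes are the other side of the question the series asks. In whole skin their values cover every cell type that uses them, and the part of endothelium in them was not tested. Of 16 tested, 12 had a higher mean, and the median was 0.11 (0.07 without control 3). By edgeR, DESeq2 or limma-voom 0 passed. At an unadjusted p under 0.05 were 2 of them, Ptprc with a higher and Mecom with a lower mean, against 9.01% of all genes. The groups stood apart higher in ecko in 2 (Ptprc and Hhex) and lower in 1 (Mecom), against 7.55% and 8.11% of all genes. Medians of basal keratinocyte, hair follicle, fibroblast, pericyte, skeletal muscle, cartilage and Schwann cell genes lay between -0.05 and 0.05. In each of these lists edgeR called 0, and 0 to 3 had an unadjusted p under 0.05, against 9.01% of all genes. DESeq2 called 1 basal keratinocyte gene and 1 pericyte and smooth muscle gene, against 0.711% of all genes. With all libraries, 13 of 14 skeletal muscle genes had a higher mean in ecko. Without control 3 the skeletal muscle median was -0.12.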

How the data were processed

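The authors deposited expected counts, unscaled estimates of reads per gene. This unit follows from the values: 10.12% to 10.36% in a library are fractional. Per the submitters' processing notes the tools were RSEM 1.3.1, HISAT2 2.2.1 and Bowtie2 2.4.5 and the build GRCm38.p6, with no roles given. Annotation and strand setting are not given in the sources used here, so reads of Prox1os (over Prox1), B130024G19Rik (over Nr2f2), Gm35369 (over Tbx1), Nt5dc2 and Gm52148 (over Stab1) and 3 loci over Reln may not be told apart from those of the members.

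Counts were rounded, filtered by filterByExpr (minimum count 10), scaled by TMM and tested in R 4.3.3 by edgeR 4.0.16 (quasi-likelihood, robust), two-sided, with Benjamini-Hochberg adjustment over 14920 genes and a threshold of 0.05. The SE is the size of the log2 fold change over the root of the F statistic, and 95% intervals use the test's degrees of freedom. CPM is given after TMM. DESeq2 1.42.0 and limma 3.58.1 (voom) were alternatives, as were other filters and scalings, a replicate block and leaving out libraries. The fitting code was tested on simulated data. Gene positions are those of RefSeq GRCm38.p6, which matched 18353 identifiers. Precision from counting covers the sampling of reads only.

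One gene of the list of other lymphatic genes is not reported here. The members and lists were chosen with earlier results of these data known. Named are all 9 members, Kdr, Flt4, Ccl21a, the 5 other lymphatic genes of smallest unadjusted p, and for each member the 2 genes of most alike pattern. Further genes of the lists, named where a count of 5 or fewer is given, were chosen after their values were seen.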

Additional observations from a re-analysis of the deposited data

How the results depend on the processing

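Under all 14 alternatives run, 0 of 9 members passed, and the smallest adjusted p was 0.0845, for Maf with pan-endothelial scaling. Their median log2 fold change moved to 0.1635 with that scaling, where 1 member, Maf, had groups without overlap. By edgeR, Maf and Prox1 had an unadjusted p under 0.05 with pan-endothelial scaling (0.0023 and 0.026). So did Maf with the replicate block (0.019) and in the 4 libraries with Y-linked reads (0.042). Without control 2, Maf and Mmrn1 did (0.035 and 0.044). In the main fit 0 of 9 members and 9.01% of all genes were under 0.05. That share is not given for the other fits, so the unadjusted p-values of members there have no background to be read against. With pan-endothelial scaling, edgeR gave 1.52% of all genes an adjusted p under 0.05, and 0 of 9 members. With 1 library left out, 0 to 2 members had groups without overlap, 0 to 2 of them higher and 0 to 1 lower, where 10.0% to 15.0% of all genes stood apart higher and 10.9% to 15.7% lower. The number of genes called moved more. DESeq2 called 86 higher and 26 lower, the replicate block 88 and 10, the 4 libraries with Y-linked reads 2 and 2, and fits with 1 library fewer called 0 to 2 higher (2 when ecko 3 was left out). The cause was not tested. The replicate numbers were not taken to pair the samples. Same-numbered libraries deviated from their group means with correlations of 0.162, -0.237 and -0.073 over genes. Deviations from a mean of 3 libraries sum to 0 in a group, so these correlations cannot settle whether samples were paired. With the block the members' adjusted p ran from 0.4427 (Maf) to 0.9925 (Tbx1).

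Members near 0 changed sign. With 1 library left out Prox1 ran from -0.017 to 0.390, Lyve1 from -0.146 to 0.074, Pdpn from -0.165 to 0.077, Nr2f2 from -0.030 to 0.134, Reln from -0.081 to 0.062 and Tbx1 from -0.095 to 0.067. Pan-endothelial scaling, which moved the median of all genes from -0.002 to 0.162, gave 0.142 for Lyve1, 0.066 for Pdpn and 0.135 for Reln, none above that shift. Lyve1 was 0.002 in the 4 libraries with Y-linked reads, and Tbx1 -0.0001 with at least 1 CPM in 3 libraries. Mmrn1 stayed lower (-0.295 to -0.096) and Stab1 and Maf higher (0.032 to 0.141 and 0.087 to 0.368) with any 1 library left out. Changes inside the printed 95% intervals remain possible.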

Other observations

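Control 2 and ecko 3, the libraries almost without Y-linked reads, were the 2 lowest libraries for 3 of 24 further lymphatic genes (12.5%: Vegfc, Sema3d and Klhl4) and the 2 highest for as many (Sox18, Fxyd6 and Lmx1b). Among 20 macrophage genes they were the 2 lowest for Mrc1 and F13a1 (10%) and the 2 highest for Cd209f and Cx3cr1 (10%). Among 22 pan-endothelial genes they were lowest for 0 and highest for 4 (18.2%: Egfl7, Cldn5, Ramp2 and Myct1). Of 12 basal keratinocyte genes 2 (16.7%: Trp63 and Dsc3) had the lowest values there and 0 the highest. Of 8 cartilage genes 2 (25%: Acan and Hapln1) were lowest and 2 (25%: Col2a1 and Col9a1) highest. They were the 2 highest for 18.8% of blood-forming, 16.7% of hair follicle, 16.7% of pericyte and smooth muscle and 20% of Schwann cell genes. For the same lists they were the 2 lowest for 6.25%, 0%, 0% and 0%. Both shares were 5% for blood endothelial genes, and 0% for fibroblast and for skeletal muscle genes. Over all genes tested the shares were 6.05% lowest and 6.66% highest. Each group has 1 such library, and no difference between the 2 kinds of library was tested.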
